A study of Arabidopsis thaliana with 6 samples.

Results

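Cytochromes P450 are haem-containing monooxygenases that insert an oxygen atom into small molecules, and most plant P450s sit in the membrane of the endoplasmic reticulum and take their electrons from an NADPH-dependent reductase. Plants use them to make lignin, hormones, surface lipids and defence compounds, and roots express many members of the family. A P450 symbol gives a family number, a subfamily letter and a gene number, so that CYP71B23 is a gene of family 71, subfamily B. The CYP71B subfamily of Arabidopsis is large and grew by tandem duplication, and only a few of its genes have a known substrate.

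The genes described here are those whose symbol reads CYP, a number and a capital letter on a probe set that the platform annotation pairs with exactly 1 gene. There were 23 such probe sets, for 23 genes, of 13513 probe sets paired with 1 gene and 22810 on the array. Of these, 19 belonged to family 71, all of subfamily CYP71B, and 1 each to CYP51 (CYP51G2), CYP78 (CYP78A9), CYP79 (CYP79A2) and CYP84 (CYP84A4). A further 2 probe sets pair a P450 with a second gene and were left out, and P450 genes on probe sets without a gene in that annotation were not analysed here. The members are therefore mainly a view of CYP71B and not of the whole P450 family.

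The study compared 3 samples of intact whole roots with 3 samples of root cells that had been freed of their walls (protoplasts) and passed through a fluorescence-activated cell sorter, with every cell kept and none selected. All 6 samples came from Columbia roots of Arabidopsis thaliana, 6 days after germination, and both groups had spent 24 hours without iron on medium with 0.3 mM of the iron chelator ferrozine. No sample with iron is among them, so the comparison shows the preparation of cells on an iron-deficient background and not the response to iron. RNA of each sample was amplified in the same way per the labels' protocols and hybridised to 1 Affymetrix array, and the values are MAS5 signal intensities, a linear brightness of each probe set. Separate cultures behind the replicates are not stated in the labels, so p-values cover no more than the spread of these samples, which may be technical, and 3 arrays per group limit the precision. In RNA from mixed cells, fewer cells of a type and less RNA per cell cannot be told apart.

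The arrays differed between the groups over much of the genome. Of 13647 probe sets tested, 55.4% were called (limma, Benjamini-Hochberg adjusted p under 0.05), 24.7% as higher and 30.7% as lower in sorted cells, and 39.5% passed with at least 2-fold between the groups. In 65.2% of all tested probe sets no array of one group reached into the range of the other. Sorted-cell arrays were less alike among themselves (Pearson's r of log2 values 0.876 to 0.948, taken over probe sets and not over independent samples) than whole-root arrays (0.966 to 0.974). Signal from the 3′ end minus signal from the 5′ end of a control transcript, a measure of how complete the amplified transcripts were, could be read from 4 pairs of probe sets, all on the log2 scale. For one actin pair it ran from 1.60 to 1.85 in whole roots and stood at 5.53, 4.09 and 3.37 in sorted-cell replicates 1, 2 and 3. For both GAPDH pairs it was also larger on every sorted-cell array, at 0.39 to 0.64 in whole roots against 2.46, 1.42 and 1.20 in sorted cells, and at 0.67 to 0.91 against 5.12, 3.41 and 2.44. The other actin pair gave overlapping groups, with 4.81 to 5.73 in whole roots and 4.85, 5.35 and 5.19 in sorted cells. Of 14 root and leaf marker genes listed, 6 had a probe set with 1 gene and were tested, and all 6 were lower in sorted cells (LHW no longer passed when replicate 1 or 2 of the whole roots or replicate 3 of the sorted cells was left out). They were EXPA7 and EXPA18 of root hairs, whose summed intensity was 2477 to 3172 in whole roots and 298.6 to 471 in sorted cells, JKD of ground tissue (101 to 131 and 17.4 to 36.9), LHW of the stele (469 to 657 and 258 to 416), and RCA and LHCB4.1 of green tissue (503 to 569 and 68.2 to 141). Root hair and stele genes were thus measured in both groups, the stele by LHW alone. JKD, the only tested gene of ground tissue, was above the background level (given below) on 2 of the 3 sorted-cell arrays. The part of cell composition and of transcript completeness in the differences below was not tested.

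**Figure D1:**
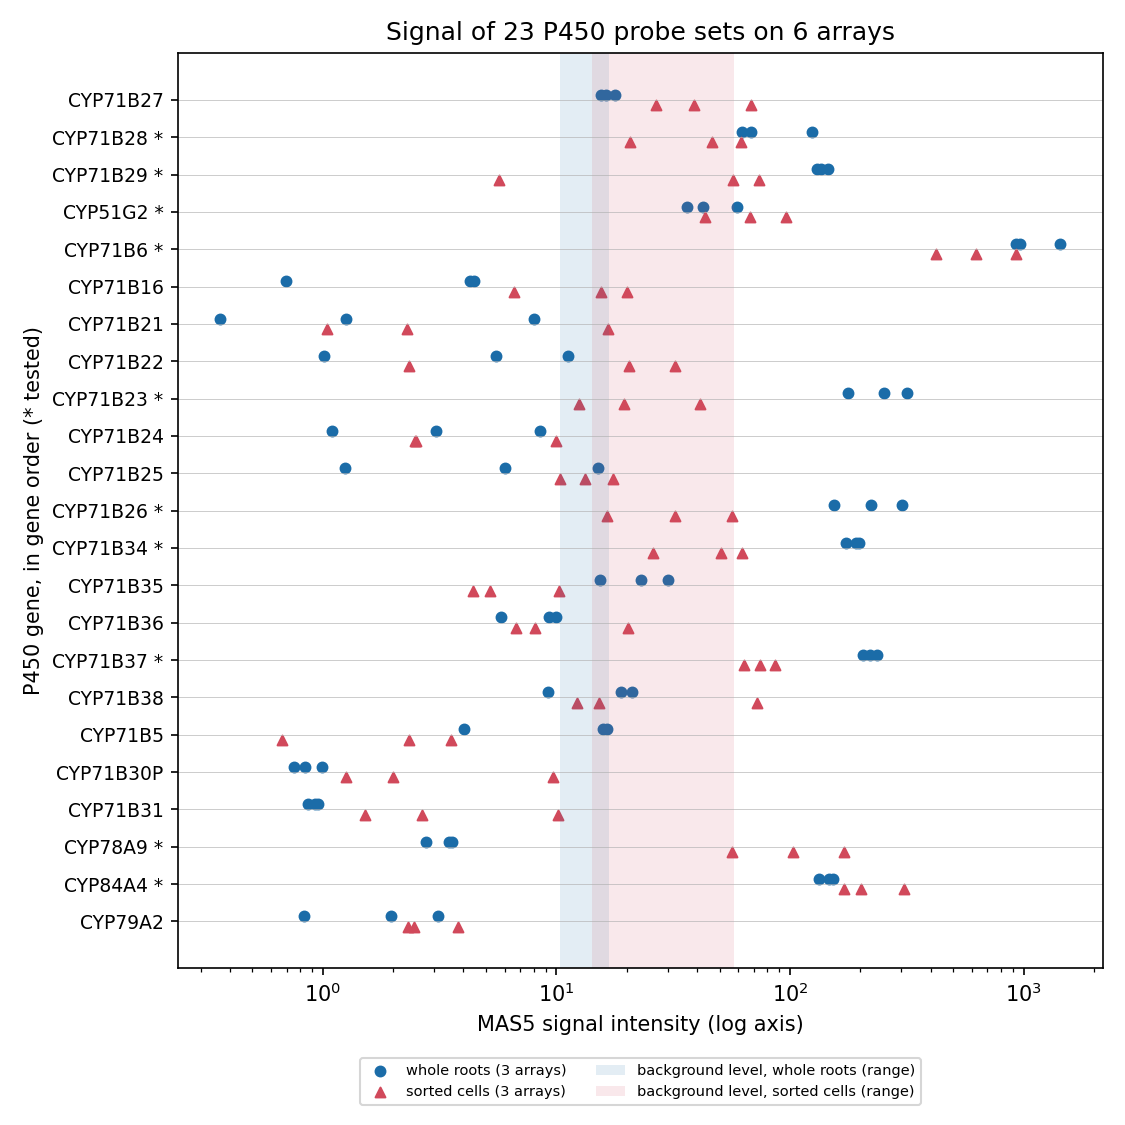
Intensity of 23 P450 probe sets on each of 6 arrays (log axis), with genes in the order of the reference gene table and the tested genes marked by an asterisk. Circles are whole roots, triangles are sorted cells, and the shaded bands span the background levels, which bacterial controls set on each array. CYP71B23, CYP71B26, CYP71B34 and CYP71B37 lie clear of both bands in whole roots and shift to the left in sorted cells, whereas CYP78A9 lies below the bands in whole roots and in or above them in sorted cells.

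Of the 23 P450 genes, 10 passed the filter on dim probe sets, which asked for a mean above 53.9 over all 6 arrays. In sorted cells 5 of these 10 were lower than in whole roots, 1 was higher and 4 did not pass the test, so that 6 of 10 were called where 55.4% of all tested probe sets were. With so few genes that share is close to the background and says nothing particular about P450s. The 5 that fell were all CYP71B genes (CYP71B23, CYP71B26, CYP71B29, CYP71B34 and CYP71B37), and the 1 that rose was CYP78A9. Only 3 of the 10 (CYP71B6, CYP71B37 and CYP84A4) had a mean above the filter in both groups. The other 7 passed through 1 brighter group, which favours genes that differ, and counts over the 10 carry no weight beyond their values.

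The background level used below was set on each array by the highest reading among 27 bacterial control probe sets. It was 10.4 to 16.8 on whole-root arrays and 57.4, 36.3 and 14.3 on sorted-cell replicates 1, 2 and 3. All 3 whole-root arrays read above it for 9 of the 10 tested genes, CYP78A9 being the exception. All 3 sorted-cell arrays did so for 5 of them, CYP51G2, CYP71B6, CYP71B37, CYP78A9 and CYP84A4.

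Family 71 held all the P450 genes that fell. CYP71B23 read 177, 318 and 253 on the whole-root arrays of replicates 1, 2 and 3, and 19.5, 41.1 and 12.5 on the sorted-cell arrays. Every sorted-cell array lay below every whole-root array, and only replicate 2 of the sorted cells was above its background level. The log2 difference was -3.49 (SE 0.44; limma adjusted p = 0.000253). No role is given here for CYP71B23, nor for CYP71B26, CYP71B28, CYP71B29, CYP71B34 and CYP71B37.

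CYP71B26 read 154, 222 and 303 in whole roots and 56.6, 32.3 and 16.4 in sorted cells. The groups did not overlap, the difference was -2.81 (log2, SE 0.45; limma adjusted p = 0.000888), and among sorted cells only replicate 3 was above background. CYP71B34 read 191, 174 and 197 in whole roots, the 3 arrays agreeing to within 1.13-fold, and 50.8, 25.9 and 62.4 in sorted cells. Its groups were apart as well, with a difference of -2.10 (SE 0.34; limma adjusted p = 0.000852), and again only replicate 3 of the sorted cells was above background. For CYP71B23, CYP71B26 and CYP71B34 the low side of the comparison thus lies near the level of probe sets with no Arabidopsis target, so the folds are imprecise in size and their order was not resolved.

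CYP71B37 was the CYP71B gene that fell while it stayed above background on all 6 arrays. It read 205, 220.02 and 237 in whole roots and 86.1, 74.3 and 63.3 in sorted cells, with the closest agreement among sorted-cell arrays of any tested P450 gene (1.36-fold from lowest to highest). The difference was -1.57 (log2, SE 0.21), or 2.98-fold lower (limma adjusted p = 0.000337).

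CYP71B29 gave a less certain result. Its whole-root arrays were close, at 131, 135 and 146, but its sorted-cell arrays read 73.5, 5.69 and 57.0. Replicate 2 stood apart from the other two, far below its background level of 36.3, and the difference of -2.25 (log2, SE 0.83; limma adjusted p = 0.0432) rested in size on that array. Without it the difference was -1.08 (limma adjusted p = 0.00629). Leaving out any single whole-root array (replicate 1, 2 or 3) ended the call, at a limma adjusted p of 0.0965, 0.0936 and 0.101. It did not pass with quantile normalization (0.0503), no filter (0.0501) or no variance trend (0.0533) either, and its adjusted p ran from 0.00629 to 0.101.

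Both remaining tested CYP71B genes were lower on average in sorted cells without passing the test. CYP71B6, which oxidises indole-3-acetonitrile in the metabolism of indolic defence compounds, was measured well above background on all 6 arrays. It read 969, 1439 and 931 in whole roots and 931, 421 and 628 in sorted cells, so that the brightest sorted-cell array reached the dimmest of the whole roots. Its difference was -0.80 (log2, SE 0.31; limma adjusted p = 0.0537). CYP71B28 read 67.8, 62.3 and 124 in whole roots and 61.9, 20.7 and 46.2 in sorted cells, groups that are apart by less than 1 unit of intensity (-1.05, SE 0.48; limma adjusted p = 0.0891). Both results turned on single arrays. Without sorted-cell replicate 1 both genes passed, CYP71B6 at -1.08 and CYP71B28 at -1.38 (limma adjusted p = 0.00455 and 0.0227), whereas without sorted-cell replicate 2 they stood at -0.51 and -0.59 (0.148 and 0.215). Without whole-root replicate 3 CYP71B28 was at -0.74 (limma adjusted p = 0.320), and without whole-root replicate 2 CYP71B6 was at -0.60 (0.194). CYP71B6 also passed with median centring and with array quality weights (0.0430 and 0.00876).

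**Figure D2:**
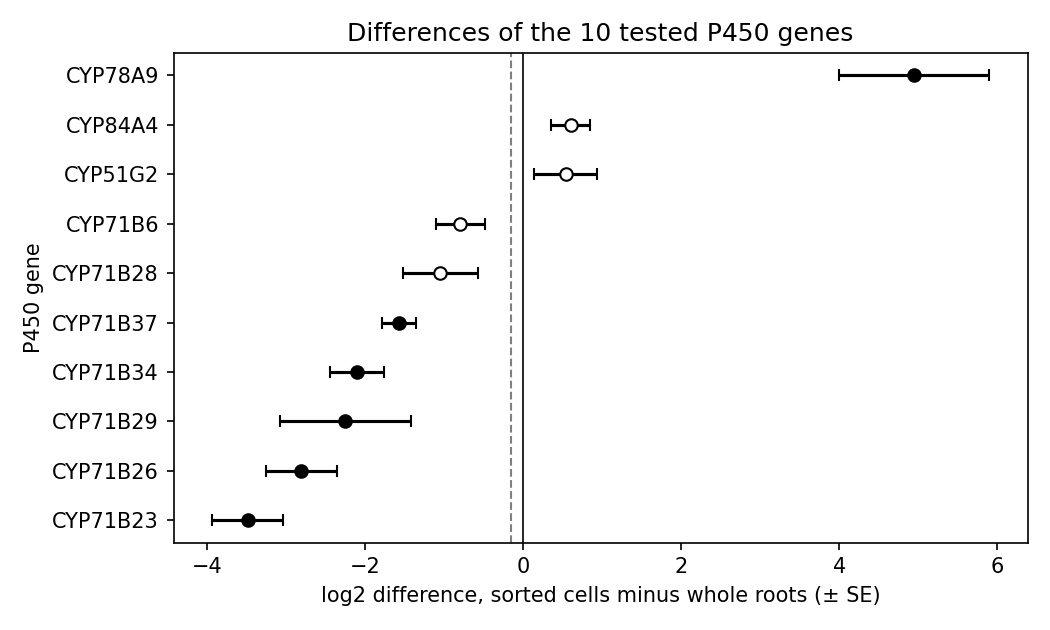
Log2 difference between sorted cells and whole roots (sorted cells minus whole roots) of the 10 tested P450 genes, with its standard error from limma. Filled points passed at an adjusted p under 0.05, open points did not, and the dashed line is the median of all 13647 tested probe sets (-0.16). The 7 CYP71B genes lie below 0, from -3.49 to -0.80, and the 3 genes of other families above it, from 0.54 to 4.94.

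All 7 tested CYP71B genes had a negative difference, with a median of -2.10, beside a median of -0.16 over all tested probe sets, of which 55.3% had a negative difference. The 3 tested genes of other families had positive differences. Whether the families differ was not tested, since 5 of the 7 CYP71B genes entered through their whole-root level alone. Of the 3 other genes, 2 (CYP51G2 and CYP78A9) entered through their sorted-cell level alone. The filter thus bears on the signs in both sets. Of the 12 CYP71B genes too dim to be tested, 10 had a positive and 2 a negative difference with no filter.

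CYP78A9, the P450 gene that rose, belongs to a family known in Arabidopsis for promoting the growth of organs, and the gene itself is known for effects on fruit and seed size. It read 3.58, 3.47 and 2.76 in whole roots, below the background level on every array, and 170.5, 56.7 and 103 in sorted cells, above it on every array. The groups were far apart, and the sorted cells differed among themselves by 3.01-fold. Because the whole-root signal gives only an upper limit, it was set at the whole-root background level. The sorted-cell signal as read was then at least 7.86-fold higher. Background was not taken off the sorted-cell signal, although it was 57.4, 36.3 and 14.3 there on replicates 1, 2 and 3. The 7.86-fold is thus a bound for signals as read and not for the transcript, and it was not itself tested. The fitted log2 difference was 4.94 (SE 0.95; limma adjusted p = 0.00219). It became 2.61 with 16 and 1.32 with 64 added to every intensity, passing in both cases. The gene passed the filter on dim probe sets through sorted cells alone.

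CYP84A4, which oxidises a phenylpropanoid aldehyde on the way to the arabidopyrones, pyrone compounds of Arabidopsis, read 134, 148 and 153 in whole roots and 308, 169 and 202 in sorted cells. Every sorted-cell array was above every whole-root array, yet the difference of 0.60 (log2, SE 0.25) did not pass (limma adjusted p = 0.0662). It passed with quantile normalization (0.73, limma adjusted p = 0.0393), with array quality weights (0.47, 0.0494) and without sorted-cell replicate 2 (0.79, 0.0248). Without sorted-cell replicate 1 the difference was smaller, at 0.36 (limma adjusted p = 0.145), and without whole-root replicate 1 it was 0.54 (0.171). CYP51G2 is listed as a transcribed pseudogene and is related to the sterol demethylase gene CYP51G1. It read 59.5, 36.4 and 42.3 in whole roots and 96.3, 67.1 and 43.4 in sorted cells, with overlapping groups (0.54, SE 0.40; limma adjusted p = 0.272).

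Of the 13 P450 genes that were not tested, 12 were CYP71B genes and 1 was CYP79A2, which starts the synthesis of benzyl glucosinolate by turning phenylalanine into its aldoxime. Their means over all 6 arrays ran from 2.41 to 30.6. CYP79A2 read 0.829, 3.11 and 1.95 in whole roots and 2.46, 2.32 and 3.79 in sorted cells, under background on all arrays. The same was true of CYP71B21, CYP71B24, CYP71B36, CYP71B30P and CYP71B31, a gene known from linalool oxidation in flowers, so that 6 of the 23 genes had no array above background. CYP71B27, a transcribed pseudogene in the reference table, was the brightest of the 13. It read 15.5, 17.8 and 16.4 in whole roots and 68.4, 26.7 and 38.8 in sorted cells, groups without overlap, and 2 of 3 arrays of each group were above background.

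CYP71B35 and CYP71B5 went the other way among the dim genes. CYP71B35 read 15.4, 30.0 and 22.9 in whole roots and 4.39, 5.20 and 10.3 in sorted cells, and CYP71B5 read 15.9, 16.5 and 4.01 and then 2.34, 3.55 and 0.672. In both genes the groups did not overlap, but no sorted-cell array was above background. CYP71B16 showed the opposite order, with 4.29, 4.42 and 0.694 in whole roots and 20.1, 6.57 and 15.6 in sorted cells, and CYP71B22, CYP71B25 and CYP71B38 had overlapping groups. When all probe sets were fitted with no filter, 0 of the 13 passed by limma (adjusted p from 0.0554 to 0.805), and 4 had an unadjusted p under 0.05. In that fit 8269 of all 22746 probe sets passed. The 13 were all dim, so nothing particular to P450s is read from their count. Their differences in that fit ran from -2.52 to 2.43 on the log2 scale, 11 positive and 2 negative. The bacterial control probe sets also had positive differences in 25 of 27 cases, with a median of 1.53, so a small positive difference at this brightness cannot be told apart from the higher background of the sorted-cell arrays.

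The CYP71B genes were also described by their place in the genome. In the gene order of the reference table (assembly TAIR10.1, used for names and neighbours only, since the files name no build), 17 of the 23 genes lay in 4 runs in which consecutive members were at most 5 gene positions apart, and 6 lay alone. The runs held 26 genes, 17 members and 9 others, of which 8 were also CYP71B genes and none had a probe set with 1 gene. The run from CYP71B25 to CYP71B37 held 6 members. Its 3 tested genes, CYP71B26, CYP71B34 and CYP71B37, all fell, beside 30.7% of all tested probe sets, and a count of 3 says nothing particular about the run. Its other members were too dim to be tested. Of these, CYP71B35 was lower on every sorted-cell array, as given above, and CYP71B25 and CYP71B36 had overlapping groups. In the run from CYP71B16 to CYP71B24, 1 of 5 members was tested, CYP71B23, which fell. The nearest members to it in that run, CYP71B22 (1.01 to 11.3 in whole roots and 2.35 to 32.3 in sorted cells) and CYP71B24 (1.10 to 8.51 and 2.49 to 10.01), were too dim to be tested. CYP71B22 read above background on 1 array of each group and CYP71B24 on none, and CYP71B3, which is not a member, lies between CYP71B23 and CYP71B24.

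In the run from CYP71B27 to CYP71B29, CYP71B27 read higher in sorted cells without a test, and CYP71B28 and CYP71B29 read lower, of which CYP71B29 passed. The run from CYP71B5 to CYP71B31 held 3 genes that were too dim to be tested. CYP71B30P, whose final P marks a pseudogene in P450 naming although the reference table lists it as protein coding, read 0.837, 0.992 and 0.757 in whole roots and 1.99, 9.67 and 1.26 in sorted cells. CYP71B31 read 0.950, 0.863 and 0.926 and then 2.65, 10.2 and 1.51. Both were under background on all 6 arrays, so their values there have no order. Signal shared between close copies of CYP71B genes was not tested, and no member's probe set carries the suffix that the array's maker gives to shared probes.

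**Figure D3:**
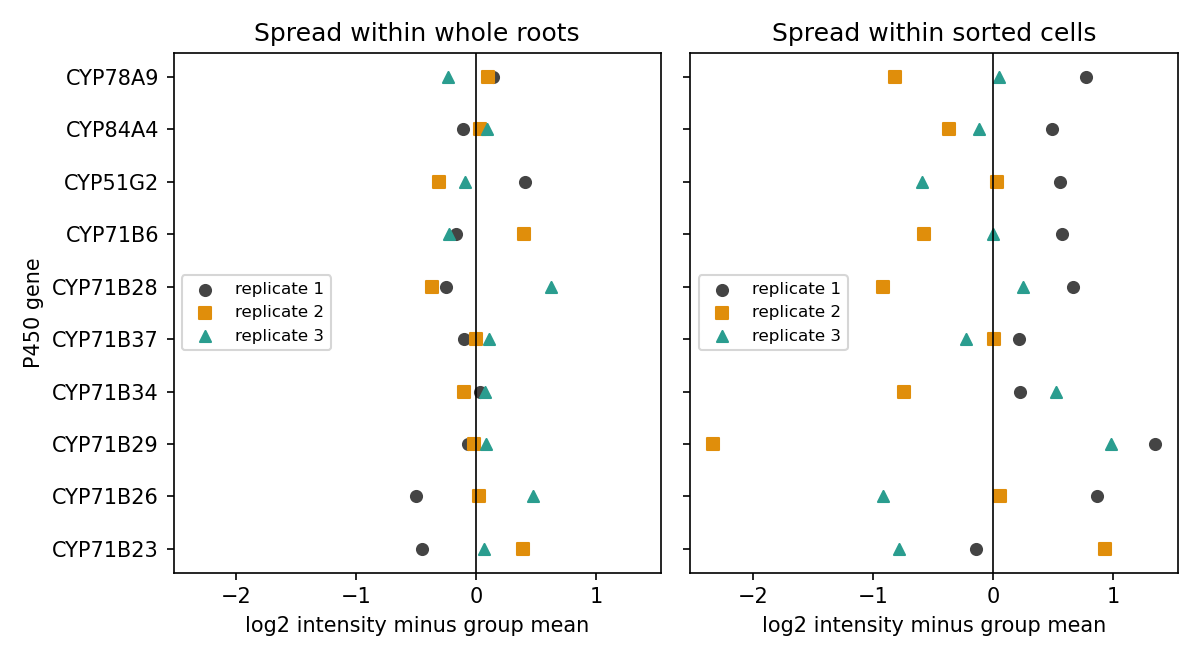
Log2 intensity of each tested P450 gene on each array minus the mean of its group, for whole roots (left) and sorted cells (right). In sorted cells replicate 1 lies highest for 8 of the 10 genes and replicate 2 lowest for 6, with CYP71B29 at -2.34 on replicate 2.

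The tested P450 genes varied more among sorted cells than among whole roots. The median SD of a gene was 0.28 (log2) among whole-root arrays and 0.73 among sorted-cell arrays, beside 0.18 and 0.37 over all tested probe sets. These sets were not matched in brightness, and only 5 of the 10 genes were above background on all 3 sorted-cell arrays. The SDs therefore say nothing particular about P450s. Sorted-cell replicate 1 was the brightest of its group for 8 of the 10 genes, against 39.6% of all tested probe sets, and replicate 2 was the dimmest for 6, against 32.4%. The exceptions to the first were CYP71B23, brightest on replicate 2, and CYP71B34, brightest on replicate 3. Replicate 1 had the highest background level and the largest 3′ to 5′ difference in 3 of the 4 control pairs, and the smallest of the sorted cells in the other actin pair. The part of either in the order of these arrays was not tested.

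**Figure D4:**
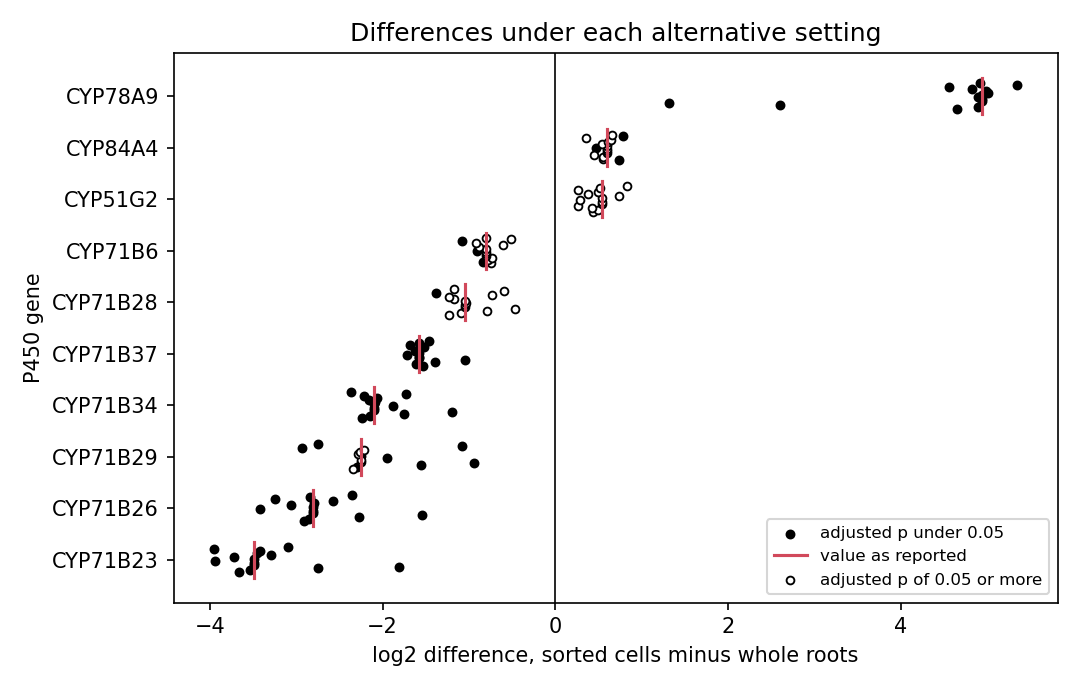
Log2 difference (sorted cells minus whole roots) of each tested P450 gene under each alternative setting, with filled points for an adjusted p under 0.05 and open points for a higher one. Red bars mark the values as reported. No gene crosses 0, and CYP71B28, CYP71B29, CYP71B6 and CYP84A4 hold both filled and open points.

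Lists of possible P450 partners and of genes in the same pathways held 127 genes. Of them, 12 had a probe set with 1 gene and 10 were tested. Of these 10, 7 fell, 1 rose and 2 did not pass, where 30.7% of all tested probe sets fell and 24.7% rose. The 10 come from lists of different pathways, and nothing particular to P450 partners is read from their count. ATR3, a diflavin reductase related to the reductases that feed P450s, fell from 105 to 125 in whole roots to 41.7 to 65.1 in sorted cells (-1.16, SE 0.27; limma adjusted p = 0.00599). It was the 1 gene with a probe set among the 9 on the list of redox partners, and whether it feeds any P450 was not tested. UGT74B1, the glucosyltransferase of the glucosinolate core that shares the indolic list with CYP71B6, was 1 of 17 genes there with a probe set. It read 787, 815 and 750 in whole roots and 567, 424 and 553 in sorted cells, a fall by 0.62 on the log2 scale (limma adjusted p = 0.0259). HCT, an acyltransferase of the lignin pathway in which CYP84A4 has its substrate, fell by 0.57 (limma adjusted p = 0.0346), whereas CYP84A4 was at 0.60 and did not pass. UGT74B1 and HCT each lost the call without any one whole-root array and without sorted-cell replicate 2 (limma adjusted p of 0.0553 to 0.102 and 0.0664 to 0.139).

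CYP79A2 stands on a merged list of aliphatic and benzyl glucosinolate genes, and of the 9 other genes listed there, 2 had a probe set and 0 were tested. They were BCAT4, which acts in the lengthening of methionine for aliphatic glucosinolates and not in the benzyl route, and UGT74C1, a glucosyltransferase, both too dim. The listed acyltransferase of the thalianol gene cluster, AT5G47980, fell from 1767 to 1812 in whole roots to 207 to 275 in sorted cells (-2.87; limma adjusted p = 1.4e-05). LYC, the lycopene beta-cyclase of carotenoid synthesis, fell by 2.19 on the log2 scale (limma adjusted p = 0.000141). The 1 gene that rose was OPCL1 of jasmonate synthesis, at 134 to 191 in whole roots and 780 to 2075 in sorted cells (2.90; limma adjusted p = 0.000171).

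The coumarin list holds genes that act in the release of iron-binding coumarins by iron-deficient roots. Of its 4 tested genes, of 6 listed, 2 fell, where 30.7% of all tested probe sets did. AT3G13610, the feruloyl-CoA hydroxylase F6'H1, read 1019, 1390 and 506 in whole roots and 176, 67.0 and 123 in sorted cells (-2.98 on the log2 scale; limma adjusted p = 0.000482). AT1G28680, coumarin synthase (COSY), read 1505, 1119 and 839 in whole roots and 685, 653 and 754 in sorted cells (-0.69; limma adjusted p = 0.0370). AT3G12900, scopoletin hydroxylase (S8H), read 504, 415 and 3.34 in whole roots and 45.5, 50.4 and 33.0 in sorted cells and did not pass (-1.07; limma adjusted p = 0.590). BGLU42, a beta-glucosidase, read 971, 797 and 310 in whole roots and 376, 601 and 443 in sorted cells and did not pass (-0.42; limma adjusted p = 0.393).

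Whole-root replicate 3 was thus the lowest of its group for all 4 coumarin genes, and far the lowest for S8H. Without that array all 4 passed, F6'H1 at -3.39, S8H at -3.43, COSY at -0.90 and BGLU42 at -0.92 (limma adjusted p = 0.000489, 0.000158, 0.0244 and 0.0327). Since it was the lowest for all 4, leaving it out enlarges each fall by construction, and these calls give no separate support. Of all 13647 tested probe sets, 5976 passed without it. The call of COSY ended without whole-root replicate 1 or 2 or sorted-cell replicate 2 or 3 (limma adjusted p of 0.0579 to 0.157). Among the 10 tested P450 genes the same array was the brightest of the whole roots for 6, against 32.2% of all tested probe sets. Among the dim ones whole-root replicate 3 was the lowest for CYP71B5 and CYP71B16, among others, and the highest for CYP71B21, CYP71B22 and CYP71B38. Without whole-root replicate 3 CYP71B23, CYP71B26, CYP71B34, CYP71B37 and CYP78A9 still passed, and CYP71B29 did not.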

How the data were processed

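The deposited table holds 1 signal intensity per probe set and array, linear and not log-transformed. The submitters' processing notes name MAS5, and the sources used here give neither its version nor a scaling target or detection calls. After trimming 2% at each end the array means were 250.02 or 250.03, and the deposited intensities were used without further scaling. Of 22810 probe sets, 13513 pair with 1 gene, 503 with several, 8730 are not listed in the annotation and 64 are controls. Controls were left out, as were the 40% of other probe sets with the lowest mean. The 13647 left were fitted on the log2 scale with limma (version 3.58.1, R 4.3.3; eBayes with a variance trend), with Benjamini-Hochberg adjustment over all of them. The fit was also run on simulated data with independent noise and few changed probe sets, unlike these data, and nothing is drawn from that run. Python 3.11.15 with pandas 2.3.3, with numpy 2.4.6 and with scipy 1.17.1 gave the other values, and matplotlib 3.10.9 the figures.

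Where no array of a group read above background, a fold is given as at least N-fold, with the dimmer side set on each array at the background level or at the gene's signal, whichever is larger. The brighter side was left as read, with no background taken off. Genes named were all tested P450 genes, those with a listed role, other untested members, and partner genes by largest change. Members and lists were chosen with earlier results of these data known. Alternatives were 2 other normalizations, offsets of 16 and 64, other filters, no variance trend, array quality weights, a replicate block, each array left out, a 2-fold rule and leaving out shared probe sets. No protein or promoter sequences were used here.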

Additional observations from a re-analysis of the deposited data

How the results depend on the processing

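No difference of the 10 tested P450 genes changed direction under any alternative run. Of the 6 called, 5 passed under every alternative in which they were tested, and CYP71B29 did not. Of the 4 not called, CYP71B28, CYP71B6 and CYP84A4 passed under at least 1 alternative and CYP51G2 under none. The count of called P450 genes, 6 as reported, ran from 5 to 8 with 1 array left out, and that of genes higher from 1 to 2. The count called was 6 of 10 with the replicate block, 7 with median centring and 8 with array quality weights. With no filter it was 5 of 23. With quantile normalization 2 genes were higher and 4 lower, where 1 and 5 are reported, since CYP84A4 gained and CYP71B29 lost its call, and with array quality weights 2 were higher. With the filter raised to the dimmest 60%, 2 P450 genes were tested, CYP71B6 and CYP84A4, and 0 were called, 0 higher and 0 lower, also within CYP71. Over all probe sets the count of 7564 ran from 5976 to 8271 with 1 array left out and was 6815 with the replicate block. Same-numbered arrays did not deviate together from their group means (r = -0.29, -0.16 and -0.042 across probe sets). With so few arrays per group the deviations within a group are tied to each other. These r values therefore cannot decide whether same-numbered samples share more than a number, and the labels do not state it. No member's probe set had a shared-probe suffix, so that alternative left the counts at 6 and 5. An offset of 64 shrank the differences, to -1.81 for CYP71B23 and -1.54 for CYP71B26. Signal over background limits the size of the falls of CYP71B23, CYP71B26, CYP71B29 and CYP71B34 and of the rise of CYP78A9.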
